A study of Rattus norvegicus with 12 samples.

Results

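The genes described here carry out fatty acid uptake, activation, mitochondrial oxidation and ketone body use. They were chosen by gene symbol for these known roles and the rule for choosing them used no measured value, but earlier results of these data were known when they were chosen. All 44 were found among the 18469 genes of the count tables. RNA came from neonatal rat ventricular myocytes (NRVMs), primary heart muscle cells of Sprague-Dawley rats, in 4 groups of 3 libraries. The siNeg group received a control siRNA and no agonist, and the siSlc25a26 group received an siRNA against Slc25a26, the mitochondrial carrier of S-adenosylmethionine, and no agonist. The siNeg PE and siSlc25a26 PE groups received the same siRNAs and, 12 h after transfection, phenylephrine (PE), an adrenergic agonist that makes these cells hypertrophic, for 36 h. All groups were kept in medium with an insulin, transferrin and selenium supplement. The paper that names these data as its own reports a knockdown of another gene, Nap1l5, with other times of transfection and PE. It names no siSlc25a26 libraries. In that study's methods the myocytes were parted from fibroblasts on a density gradient, so other heart cells can remain in such cultures. Each library holds RNA from a whole dish, in which fewer cells of a type and less RNA per cell cannot be told apart. The labels do not say whether the 3 libraries of a group came from separate cell isolations, so the p-values measure the spread between these samples, which may be technical.

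The adult heart takes most of its energy from long-chain fatty acids. Fatty acids are freed from lipoproteins or lipid droplets, bound in the cell, joined to coenzyme A and passed into mitochondria by the carnitine shuttle, where a cycle of dehydrogenase, hydratase, dehydrogenase and thiolase steps shortens them to acetyl-CoA. Neonatal myocytes rely more on glucose, and their oxidation genes rise as the heart matures. Many genes of this pathway are controlled by nuclear receptors such as PPARα and the estrogen-related receptors. In hypertrophy and heart failure the pathway is known to lose expression, whereas ketone body use is known to gain.

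The promoter windows below show the DNA around the start of several members. RefSeq promoter sequences of the GRCr8 assembly, from 250 bases before to 50 bases after each gene's start, were matched for 38 of the 44 members, and the count files themselves were made on the Rnor_6.0 build per the submitters' processing notes. AGGTCA, the core element bound by many nuclear receptors, was searched on both strands and occurred in 10 of the 38 windows (26.3%), against 15.7% of the windows of all 27457 genes. The longer motifs TCAAGGTCA, named for the estrogen-related receptors, and AGGTCANAGGTCA, the direct repeat bound by PPAR with its partner, both contain that core. They occurred in 0 of the 38 windows, against 0.412% and 0.0583% of all windows. The following stretches hold the core element, in capitals on either strand, in 6 members that encode a lipid droplet coat protein, a fatty acid transporter and 4 oxidation enzymes.
Plin5 (chr9:1033411-1033466, - strand): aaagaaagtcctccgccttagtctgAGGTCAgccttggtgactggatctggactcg
Slc27a1 (chr16:18312717-18312755, + strand): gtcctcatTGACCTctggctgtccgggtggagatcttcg
Eci1 (chr10:13961131-13961186, + strand): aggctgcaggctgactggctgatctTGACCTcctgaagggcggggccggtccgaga
Echs1 (chr1:204333569-204333624, - strand): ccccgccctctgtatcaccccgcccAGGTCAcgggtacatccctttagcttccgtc
Acadvl (chr10:55236844-55236899, - strand): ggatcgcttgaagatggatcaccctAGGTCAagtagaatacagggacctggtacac
Acad11 (chr8:113559974-113560029, + strand): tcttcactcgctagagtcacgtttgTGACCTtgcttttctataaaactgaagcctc
In Plin5 the core element lay 157 bases before the annotated start, in Acadvl 169 bases, in Slc27a1 242 bases, in Eci1 94 bases, in Echs1 93 bases and in Acad11 213 bases. The Acadvl window also holds it 17 bases before the start, outside the stretch shown. All 6 genes, which were chosen with these results known, fell in the libraries labelled siSlc25a26 PE against siNeg PE, as described below. Among the 9 tested members whose window holds the core element, 8 were lower in that comparison and 1, Acacb, was higher. Of the 28 tested members whose window lacks it 18 were lower and 3 higher, and of the 6 with no matched window 4 were lower, beside 20.1% of all genes tested in each direction. For the difference between the PE effects described below, 0 of the 9 were negative at an adjusted p under 0.05 (edgeR). There 5 of the 28 and 2 of the 6 were negative, beside 5.73% of all genes. A letter match is a description and is not a measured binding site.

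The 250 bases before the start of Bdh1 and Oxct1 are shown because these 2 ketone body genes had among the largest rises with PE. Capitals mark the GC box, GGGCGG on either strand.
Bdh1 (chr11:82842637-82842886, - strand): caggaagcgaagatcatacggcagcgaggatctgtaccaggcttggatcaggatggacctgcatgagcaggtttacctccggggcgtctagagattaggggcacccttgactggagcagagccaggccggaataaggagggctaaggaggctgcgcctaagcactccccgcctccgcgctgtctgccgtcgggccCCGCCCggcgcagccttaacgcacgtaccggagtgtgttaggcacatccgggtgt
Oxct1 (chr2:54963714-54963963, + strand): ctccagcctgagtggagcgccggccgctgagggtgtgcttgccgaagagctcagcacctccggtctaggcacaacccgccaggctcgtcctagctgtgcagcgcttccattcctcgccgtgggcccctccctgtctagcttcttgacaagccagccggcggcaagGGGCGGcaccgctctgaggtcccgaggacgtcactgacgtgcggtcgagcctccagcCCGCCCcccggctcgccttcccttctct
The GC box occurred in 25 of the 38 member windows (65.8%) and in 34.9% of all windows, whereas the CCAAT box occurred in 14 (36.8%) and in 37.7% of all windows.

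Library totals ran from 24770972 to 28709049 estimated counts, of which the 44 members took 0.751% to 0.804% in siNeg, 0.685% to 0.732% in siNeg PE, 0.689% to 0.756% in siSlc25a26 and 0.520% to 0.562% in the libraries labelled siSlc25a26 PE. Slc25a26 itself stood at 33.2, 31.6 and 29.3 CPM (counts scaled to a common library total, scaled by trimmed mean of M values) in siNeg and at 15.8, 14.8 and 14.7 in siSlc25a26, a 2.11-fold fall (log2 fold change -1.08, SE 0.0798, adjusted p = 1.08e-05, edgeR quasi-likelihood test). It stood at 113, 106 and 86.2 CPM in siNeg PE and at 102, 106 and 98.8 in the libraries labelled siSlc25a26 PE (log2 fold change -0.01, SE 0.101, adjusted p = 0.969), so the knockdown named by that label was not seen in its target's RNA. Every comparison with those libraries below is therefore a comparison with libraries so labelled. All 12 cardiomyocyte markers were measured, with summed levels of 38640 to 40410 CPM in siNeg, 61610 to 67560 in siNeg PE, 37450 to 41770 in siSlc25a26 and 80010 to 85770 in the libraries labelled siSlc25a26 PE. Myh7 alone had group means of 9457, 17560, 11920 and 23710 CPM in that order. Single markers of this list differed in direction. At an adjusted p under 0.05 (edgeR) 7 rose and 1 fell with PE in siNeg, and 1 rose and 5 fell in siSlc25a26 without PE. In the libraries labelled siSlc25a26 PE 3 were higher and 3 lower than in siNeg PE, and 9 were higher and 1 lower than in siSlc25a26. The sum of 10 fibroblast markers was 25090 to 27860 CPM in siNeg, 13360 to 13950 in siNeg PE, 14660 to 16650 in siSlc25a26 and 10430 to 11540 in the libraries labelled siSlc25a26 PE, and the sums of 10 macrophage and immune markers were 111 to 133, 61.2 to 70.4, 60.4 to 70.0 and 42.6 to 50.4 CPM in the same order. The sums of 7 smooth muscle and pericyte markers were 3428 to 3706, 1771 to 2214, 1826 to 2099 and 2079 to 2167 CPM, and those of 9 endothelial markers 30.4 to 32.8, 26.6 to 28.5, 30.9 to 31.6 and 31.1 to 33.7 CPM. Of 6 adipocyte markers 2 were matched, Fabp4 and Cidec, summing to 1.92 to 3.15 CPM in siNeg and to 0.312 to 0.778 CPM across the other groups, and Cd3e, a T cell marker, was at 0 in all but 1 library. The summed fibroblast, immune and smooth muscle markers were thus lower in every other group than in siNeg, although single markers differed in direction (with PE in siNeg 2 of 10 fibroblast markers rose and 6 fell, and 2 of 7 smooth muscle and pericyte markers rose and 4 fell). Their part in the values below was not tested.

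Levels per transcript length, in the authors' FPKM (read fragments scaled by transcript length and library size), spanned a wide range within the pathway. Fabp3, the heart fatty acid binding protein, led in all 4 groups with group means of 1258 in siNeg, 1048 in siNeg PE, 892 in siSlc25a26 and 725 in the libraries labelled siSlc25a26 PE. The trifunctional protein subunits Hadhb (381 FPKM) and Hadha (277 FPKM), the uncoupling protein Ucp2 (367 FPKM) and the dehydrogenase Acadl (232 FPKM) followed in siNeg. Cpt1b, the muscle form of the carnitine palmitoyltransferase, stood at 112 FPKM in siNeg and Cpt1a, the liver form, at 33.6. At the low end Acsl6 stood at 1.09, Angptl4 at 0.627, Acot1 at 0.110 and Ucp3 at 0.107 FPKM in siNeg. Oxct1 stood 20th of the 44 in siNeg and 7th in siNeg PE, and Bdh1 stood 34th and 29th. Ucp3 and Acot1 were at 0 to 0.478 CPM in all libraries. Ucp3 passed the filter on low counts in no comparison, and Acot1 passed it only in the comparison under PE and in the difference between the PE effects. Acot1 and Acot2 are near-identical copies whose reads the counting could split, so both are uncertain.

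PE in siNeg cells lowered more members than it raised. At an adjusted p under 0.05 (edgeR, adjusted over all genes tested) 8 of 42 tested members rose (19.0%, against 25.2% of all genes) and 16 fell (38.1%, against 24.3%). With the study's added threshold of 1.5-fold, 5 rose (11.9%, against 12.4% of all genes) and 8 fell (19.0%, against 8.24%). The median log2 fold change of the members was -0.16, beside 0.00016 over all genes tested. The 8 that rose included 3 of the 5 acyl-CoA synthetases and 2 of the 3 ketone body genes, of which the third, Acat1, fell. The 16 that fell included 2 of 4 carnitine shuttle genes, 4 of 5 hydratase, hydroxyacyl dehydrogenase and thiolase genes and 2 of 3 unsaturated fatty acid genes.

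In the siSlc25a26 libraries without PE, compared with siNeg, 6 of 42 members rose (14.3%, against 23.3% of all genes) and 17 fell (40.5%, against 21.7%). Beyond 1.5-fold, 3 rose (7.14%, against 8.92%) and 2 fell (4.76%, against 7.2%), so most falls were small. The median was -0.18 for the members and 0.015 for all genes.

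The libraries labelled siSlc25a26 PE, compared with siNeg PE, had lower levels of most members. Of 43 tested members 4 were higher (9.30%, against 20.1% of all genes) and 30 were lower (69.8%, against 20.1%). Beyond 1.5-fold, 1 was higher (2.33%, against 7.71%) and 11 were lower (25.6%, against 8.1%). Leaving out siSlc25a26 PE library 3 brought the latter count to 7, and that over all genes from 1108 to 1025. The median was -0.36, beside -0.0028 for all genes. Of the 17 members that fell without PE, 17 were also lower under PE (100.0% of 17 and 56.7% of 30). Of the 6 that rose without PE, 4 were also higher under PE (66.7% of 6 and 100.0% of 4). The comparisons share no library. The same overlap was not counted over all genes, so these shares cannot set the members apart from other genes.

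PE in the siSlc25a26 background, which compares the libraries labelled siSlc25a26 PE with siSlc25a26, raised 6 of 42 members (14.3%, against 26.4% of all genes) and lowered 25 (59.5%, against 26%). Beyond 1.5-fold, 4 rose (9.52%, against 10.1%) and 14 fell (33.3%, against 10.4%). The median was -0.32, beside -0.0036 for all genes. Of the 16 members that fell with PE in siNeg, 15 fell here too (93.8% of 16 and 60.0% of 25), and 6 rose in both (75.0% of 8 and 100.0% of 6). The comparisons again share no library, and the overlap over all genes was again not counted.

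The difference between the PE effects, the change with PE in the siSlc25a26 background less that in siNeg, was tested over all 12 libraries. It was negative at an adjusted p under 0.05 for 7 of 43 members (16.3%, against 5.73% of all genes) and positive for 0 (0.00%, against 5.48%). Beyond 1.5-fold, 4 were negative (9.30%, against 3.34%) and 0 positive (0.00%, against 2.16%). At an unadjusted p under 0.05, 18 of 43 members were negative and 0 positive in edgeR. Of all 14097 genes 3704 passed that level in both directions together, and their split by direction was not counted. DESeq2, limma-voom and limma on the FPKM values also gave 0 positive members at the adjusted threshold. The median was -0.21, beside -0.045 for all genes. The 7 were Angptl4, Acsl6, Hadh, Acaa2, Cpt2, Acad10 and Decr1.

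**Figure D1:**
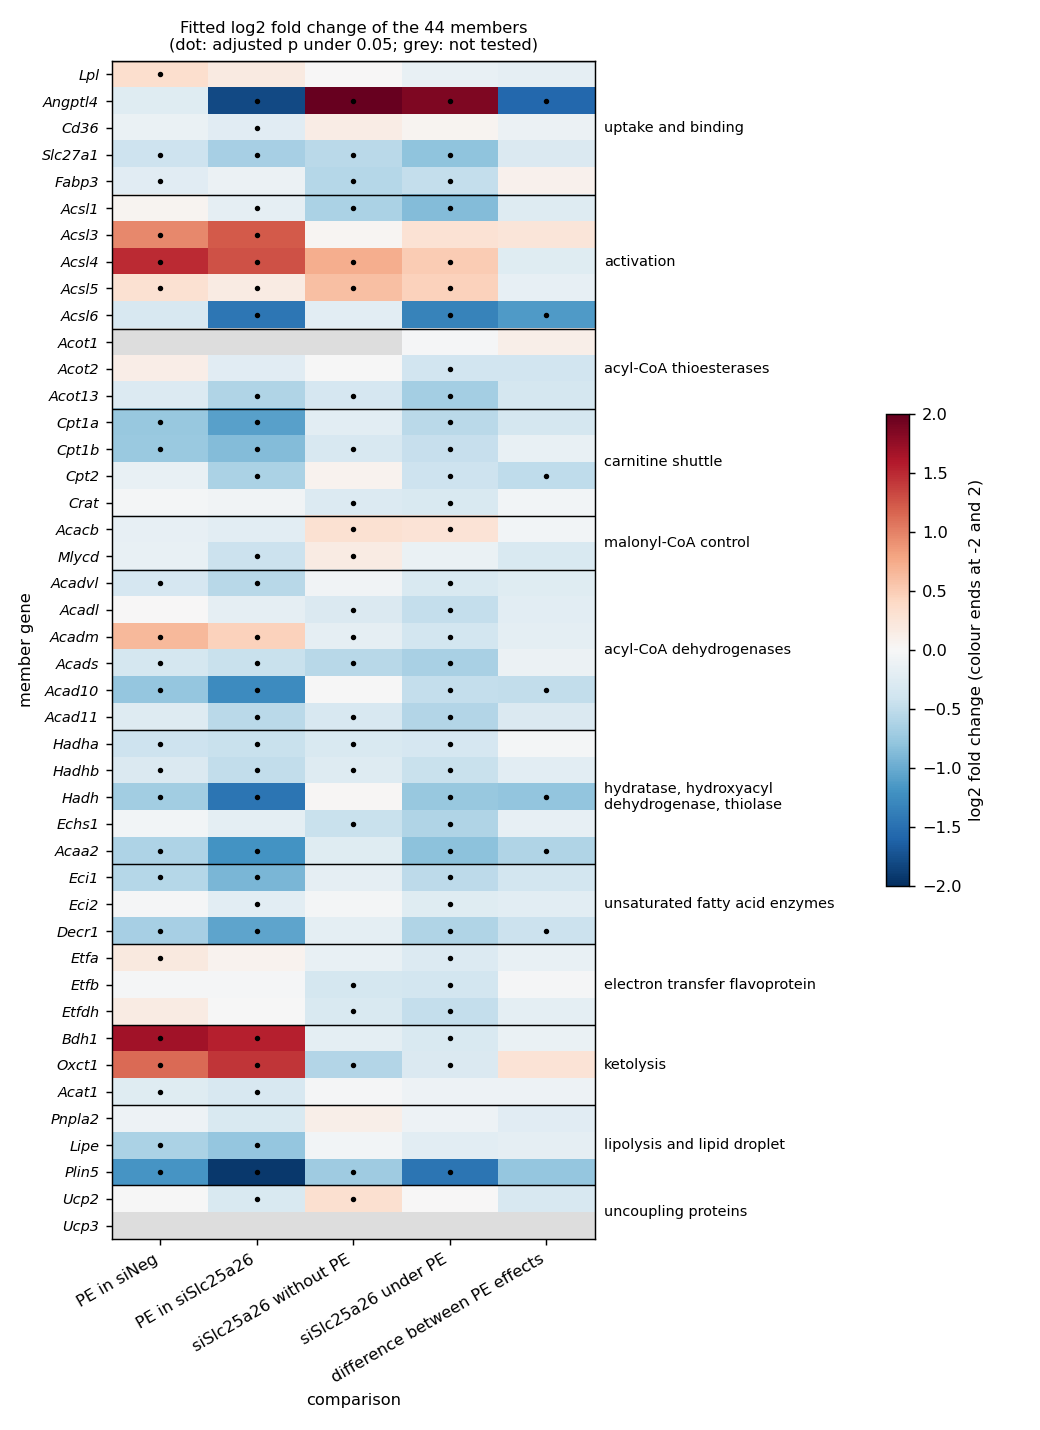
Log2 fold change of each of the 44 members (rows, grouped by role) in the 5 comparisons (columns), with red for higher and blue for lower. A dot marks an adjusted p under 0.05 in edgeR and grey a gene that was not tested. Blue prevails for oxidation genes in the comparison under PE, where 30 members were lower, and Bdh1 and Oxct1 stand out in red with PE.

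Among uptake and binding genes, Slc27a1, a fatty acid transport protein of the plasma membrane, fell in all 4 comparisons of groups, and the Lpl inhibitor Angptl4 had the largest rise of any member. Slc27a1 stood at 67.9, 64.5 and 70.8 CPM in siNeg and 54.05, 51.5 and 49.03 in siNeg PE. The values were 48.4, 47.2 and 45.9 in siSlc25a26 and 30.8, 30.8 and 27.1 in the libraries labelled siSlc25a26 PE. The 4 groups were ordered without overlap between siNeg, siNeg PE, siSlc25a26 and the libraries labelled siSlc25a26 PE, from high to low. The fall was 1.33-fold with PE in siNeg (log2 fold change -0.41, SE 0.0614, adjusted p = 0.00117) and 1.46-fold in siSlc25a26 without PE (log2 fold change -0.55, SE 0.0533, adjusted p = 6.46e-05), and the libraries labelled siSlc25a26 PE were 1.76-fold below siNeg PE (log2 fold change -0.81, SE 0.0787, adjusted p = 7.84e-05).

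Angptl4, a secreted protein that inhibits lipoprotein lipase and is a known PPAR target, stood at 1.63, 0.648 and 1.25 CPM in siNeg and 0.995, 0.933 and 1.08 in siNeg PE. The values were 12.8, 14.2 and 12.1 in siSlc25a26 and 3.902, 3.58 and 3.63 in the libraries labelled siSlc25a26 PE. All siSlc25a26 libraries were well above all siNeg libraries, and the libraries labelled siSlc25a26 PE lay between. The rise without PE was 10.8-fold (log2 fold change 3.43, SE 0.234, adjusted p = 6.11e-06) and that under PE 3.66-fold (log2 fold change 1.87, SE 0.175, adjusted p = 6.31e-05). PE in siNeg left overlapping values (log2 fold change -0.25, SE 0.334, adjusted p = 0.561), whereas in the siSlc25a26 background Angptl4 fell 3.49-fold (log2 fold change -1.80, SE 0.108, adjusted p = 2.14e-06). These PE effects differed (log2 fold change -1.58, SE 0.317, adjusted p = 0.00744).

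Cd36, the main fatty acid translocase of the heart cell, stood at 200.1, 257 and 270.2 CPM in siNeg and 203, 230.2 and 232 in siNeg PE. The values were 264, 291 and 268 in siSlc25a26 and 228, 229.9 and 238 in the libraries labelled siSlc25a26 PE. Its groups overlapped except for a small fall with PE in the siSlc25a26 background (log2 fold change -0.23, SE 0.0539, adjusted p = 0.00586). Fabp3, which carries fatty acids in the cytosol, stood at 723, 754 and 696 CPM in siNeg and 662, 634 and 585 in siNeg PE. The values were 485, 501 and 510.3 in siSlc25a26 and 495, 463 and 410.4 in the libraries labelled siSlc25a26 PE. The siSlc25a26 libraries were all below the siNeg libraries, a 1.48-fold fall (log2 fold change -0.56, SE 0.0531, adjusted p = 5.1e-05), and those labelled siSlc25a26 PE were all below siNeg PE (log2 fold change -0.47, SE 0.0826, adjusted p = 0.00211). The smaller fall with PE in siNeg (log2 fold change -0.22, SE 0.0598, adjusted p = 0.016) missed the threshold without siNeg library 1 (adjusted p = 0.0606), siNeg library 2 (adjusted p = 0.0602) or siNeg PE library 2 (adjusted p = 0.0687). Lpl, the lipase that frees fatty acids from lipoproteins, stood at 144, 158 and 164 CPM in siNeg and 176, 197 and 219 in siNeg PE. The values were 142, 169 and 167 in siSlc25a26 and 172, 179 and 186 in the libraries labelled siSlc25a26 PE. It rose 1.26-fold with PE in siNeg (log2 fold change 0.34, SE 0.0907, adjusted p = 0.0159), and its level under PE overlapped between the siRNAs.

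**Figure D2:**
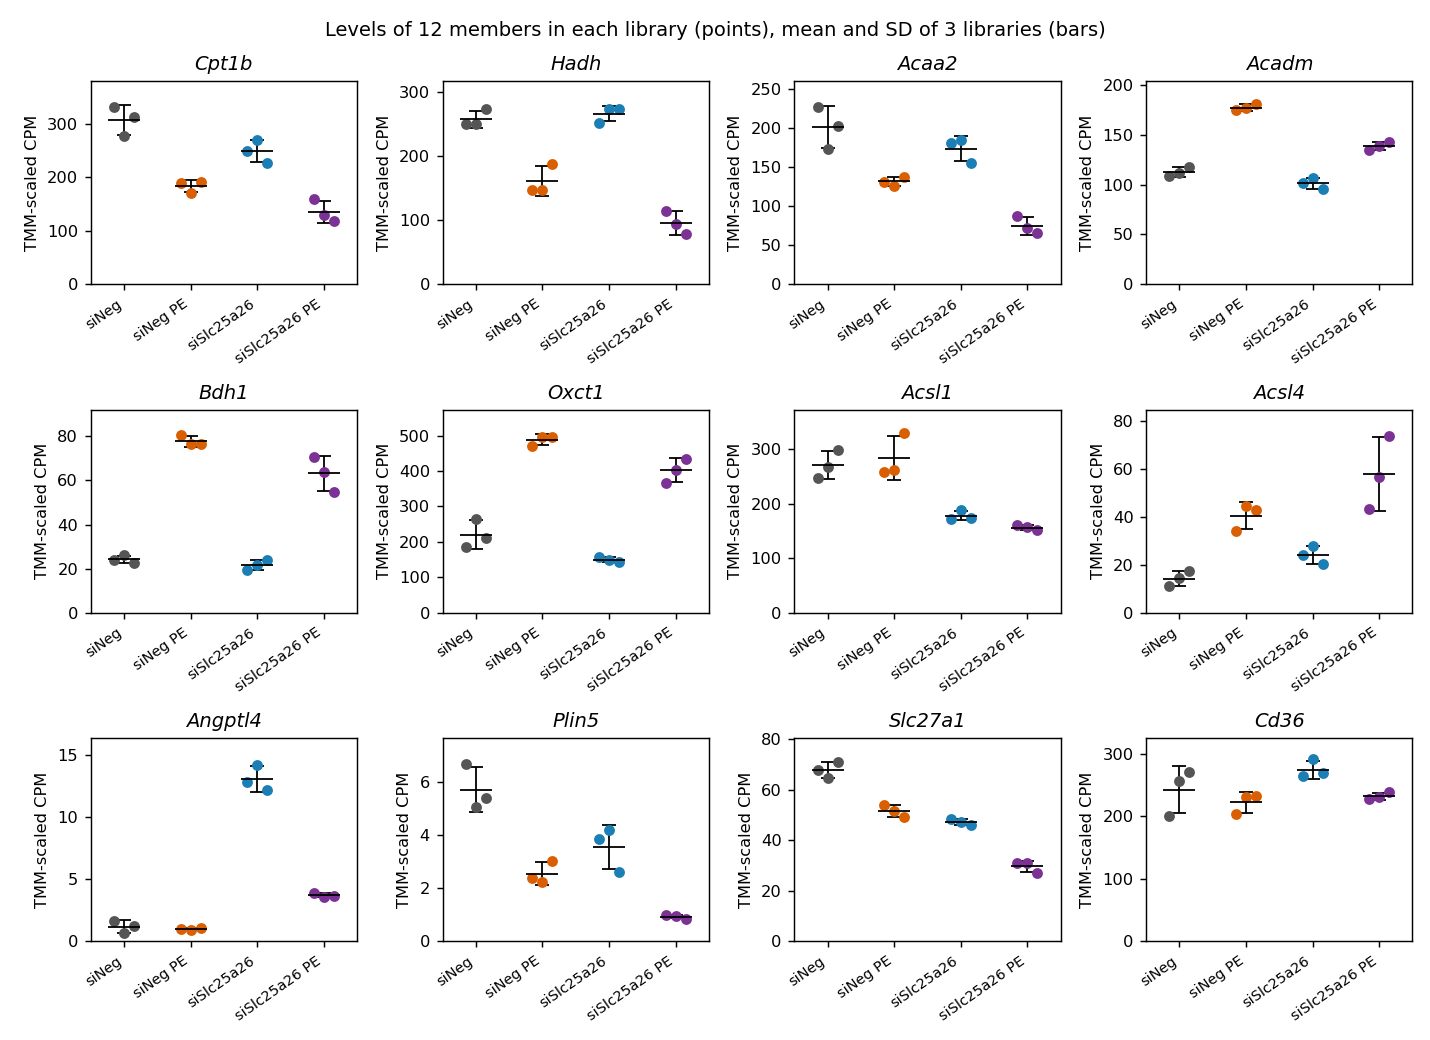
TMM-scaled CPM of 12 members in each library (points), with the mean and SD of the 3 libraries of a group (bars), each panel on its own linear axis from 0. Bdh1 and Oxct1 are high in both PE groups, Angptl4 is high in siSlc25a26, and Hadh, Acaa2, Slc27a1 and Plin5 are lowest in the libraries labelled siSlc25a26 PE.

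The acyl-CoA synthetases, which activate fatty acids by joining them to coenzyme A, moved in different directions. Acsl1, the main form in heart muscle, stood at 248, 268 and 299 CPM in siNeg and 258, 263 and 330.3 in siNeg PE. The values were 173, 188 and 174 in siSlc25a26 and 161, 157 and 152 in the libraries labelled siSlc25a26 PE. Every siSlc25a26 library, with or without PE, was below every siNeg library. The fall was 1.55-fold without PE (log2 fold change -0.63, SE 0.0702, adjusted p = 0.00014) and 1.82-fold under PE (log2 fold change -0.87, SE 0.0912, adjusted p = 0.00013), whereas PE in siNeg gave log2 fold change 0.05, SE 0.111, adjusted p = 0.72. A small fall with PE in the siSlc25a26 background (log2 fold change -0.18, SE 0.0522, adjusted p = 0.0177) missed the threshold in a fit of all 12 libraries (adjusted p = 0.103), without siSlc25a26 library 2 (adjusted p = 0.0689) and without siSlc25a26 PE library 2 (adjusted p = 0.0704).

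Acsl4, which prefers arachidonic acid and other polyunsaturated fatty acids, stood at 10.98, 14.5 and 17.2 CPM in siNeg and 33.99, 44.5 and 43 in siNeg PE. The values were 23.9, 27.9 and 20.3 in siSlc25a26 and 43.3, 56.7 and 73.9 in the libraries labelled siSlc25a26 PE. Values were lowest in siNeg and both PE groups were above their controls without overlap. It rose 2.83-fold with PE in siNeg (log2 fold change 1.499, SE 0.166, adjusted p = 0.000267), 2.43-fold with PE in the siSlc25a26 background (log2 fold change 1.28, SE 0.187, adjusted p = 0.000467) and 1.66-fold in siSlc25a26 without PE (log2 fold change 0.73, SE 0.164, adjusted p = 0.00655). Under PE the groups overlapped and the difference was near the threshold (log2 fold change 0.51, SE 0.181, adjusted p = 0.0492). It missed the threshold with limma-voom (adjusted p = 0.0655), on both FPKM scales (adjusted p = 0.132 and 0.128), with a minimum of 10 counts (adjusted p = 0.0580) and without any of siNeg PE libraries 1, 2 and 3 (adjusted p = 0.127, 0.0802 and 0.107) or siSlc25a26 PE libraries 2 and 3 (adjusted p = 0.1 and 0.134).

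Acsl3, found on lipid droplets and the endoplasmic reticulum, stood at 27.01, 35.2 and 32.8 CPM in siNeg and 53.3, 68.5 and 65.3 in siNeg PE. The values were 33.5, 32.7 and 32.8 in siSlc25a26 and 65.7, 74.1 and 89.98 in the libraries labelled siSlc25a26 PE. Both PE groups were above their controls, with a 1.95-fold rise in siNeg (log2 fold change 0.97, SE 0.124, adjusted p = 0.000533) and a 2.34-fold rise in the siSlc25a26 background (log2 fold change 1.23, SE 0.108, adjusted p = 2.27e-05). Acsl5 stood at 79.2, 79.8 and 78.2 CPM in siNeg and 94.9, 99.5 and 100.0 in siNeg PE. The values were 118, 129 and 119 in siSlc25a26 and 136, 135 and 136 in the libraries labelled siSlc25a26 PE. It was higher in both siSlc25a26 groups than in their siNeg counterparts (log2 fold change 0.60, SE 0.0515, adjusted p = 2.86e-05 without PE, and log2 fold change 0.46, SE 0.0539, adjusted p = 0.000244 under PE), and it rose with PE in siNeg (log2 fold change 0.30, SE 0.0528, adjusted p = 0.00238). Its rise with PE in the siSlc25a26 background (log2 fold change 0.16, SE 0.0518, adjusted p = 0.0253) turned to -0.0024 on both FPKM scales. That rise missed the threshold with the replicate number as a block (adjusted p = 0.061), without siSlc25a26 PE library 2 (adjusted p = 0.0694) and without siSlc25a26 libraries 1 and 3 (adjusted p = 0.0995 and 0.0849). Acsl6, a form best known from brain, was low and stood at 2.90, 4.42 and 3.801 CPM in siNeg and 2.47, 3.42 and 3.03 in siNeg PE. The values were 3.48, 3.04 and 3.27 in siSlc25a26 and 1.17, 1.47 and 0.928 in the libraries labelled siSlc25a26 PE. The libraries labelled siSlc25a26 PE were below all others, 2.72-fold below siSlc25a26 (log2 fold change -1.44, SE 0.201, adjusted p = 0.000355) and 2.51-fold below siNeg PE (log2 fold change -1.33, SE 0.226, adjusted p = 0.00176).

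Of the acyl-CoA thioesterases, which release free fatty acids again, Acot13 ranged from 21.5 to 52.9 CPM and was lower in siSlc25a26 than in siNeg (log2 fold change -0.34, SE 0.102, adjusted p = 0.0245) and in the libraries labelled siSlc25a26 PE than in siNeg PE (log2 fold change -0.67, SE 0.111, adjusted p = 0.00154). The fall without PE missed the threshold on both FPKM scales (adjusted p = 0.0564 and 0.0559), without siNeg library 2 (log2 fold change -0.22, adjusted p = 0.0544) and without siSlc25a26 libraries 1 and 3 (adjusted p = 0.0878 and 0.0622). Acot2, the mitochondrial form, ranged from 25.5 to 40.7 CPM and was lower under PE (log2 fold change -0.38, SE 0.112, adjusted p = 0.0254), which missed the threshold without siNeg PE library 3 (adjusted p = 0.0725) or without siSlc25a26 PE libraries 2 and 3 (adjusted p = 0.127 and 0.0942).

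In the carnitine shuttle, which moves fatty acyl groups across the mitochondrial membranes, all 4 members were lower in the libraries labelled siSlc25a26 PE than in siNeg PE. Their summed CPM was 71.9% to 80.7% of the siNeg mean in siNeg PE, 82.1% to 91.0% in siSlc25a26 and 52.8% to 65.3% in the libraries labelled siSlc25a26 PE. Cpt1b, the rate-controlling step in muscle, stood at 332, 277 and 312 CPM in siNeg and 189, 171 and 192 in siNeg PE. The values were 249.7, 270.4 and 228 in siSlc25a26 and 158, 129 and 118 in the libraries labelled siSlc25a26 PE. PE libraries were below their controls in both backgrounds. It fell 1.68-fold with PE in siNeg (log2 fold change -0.75, SE 0.0801, adjusted p = 0.000224), 1.83-fold with PE in the siSlc25a26 background (log2 fold change -0.88, SE 0.105, adjusted p = 0.000149), 1.25-fold in siSlc25a26 without PE (log2 fold change -0.33, SE 0.0785, adjusted p = 0.00912) and 1.37-fold under PE (log2 fold change -0.46, SE 0.104, adjusted p = 0.0075). Cpt1a, the form that prevails in liver and in the fetal heart, stood at 153, 126 and 155 CPM in siNeg and 81.6, 76.8 and 98.9 in siNeg PE. The values were 131, 133 and 118 in siSlc25a26 and 64.9, 58.5 and 54.9 in the libraries labelled siSlc25a26 PE. It fell 1.697-fold with PE in siNeg (log2 fold change -0.76, SE 0.116, adjusted p = 0.00119) and 2.13-fold in the siSlc25a26 background (log2 fold change -1.09, SE 0.0738, adjusted p = 4.52e-06), while siSlc25a26 and siNeg overlapped without PE (log2 fold change -0.21, SE 0.0809, adjusted p = 0.0656).

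Cpt2, the inner membrane enzyme that returns the acyl group to coenzyme A, stood at 113, 106 and 116 CPM in siNeg and 104, 95.3 and 106 in siNeg PE. The values were 119, 127 and 112 in siSlc25a26 and 83.7, 78.2 and 68.3 in the libraries labelled siSlc25a26 PE. The libraries labelled siSlc25a26 PE were below the others. PE in siNeg gave log2 fold change -0.15, SE 0.0629, adjusted p = 0.0835 and PE in the siSlc25a26 background a 1.54-fold fall (log2 fold change -0.63, SE 0.0781, adjusted p = 0.000187), and these effects differed (log2 fold change -0.50, SE 0.107, adjusted p = 0.0105). Crat, which buffers acetyl groups as acetylcarnitine, ranged from 203 to 299.6 CPM and was lower in both siSlc25a26 groups (log2 fold change -0.27, SE 0.0769, adjusted p = 0.0183 without PE, and log2 fold change -0.31, SE 0.0713, adjusted p = 0.00837 under PE). The former missed the threshold on both FPKM scales (adjusted p = 0.0650 and 0.0651), without siNeg library 1 (adjusted p = 0.0514) and without siSlc25a26 libraries 1 and 2 (adjusted p = 0.0541 and 0.0578), and the latter without siSlc25a26 PE library 2 (adjusted p = 0.0571).

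Malonyl-CoA, made by Acacb and removed by Mlycd, restrains the carnitine shuttle. Acacb stood at 240.4, 214 and 254 CPM in siNeg and 206, 196 and 233 in siNeg PE. The values were 288, 289.6 and 315 in siSlc25a26 and 289, 254 and 227 in the libraries labelled siSlc25a26 PE. The siSlc25a26 libraries were above the siNeg libraries (log2 fold change 0.31, SE 0.0674, adjusted p = 0.00575). The difference under PE, where values overlapped, was near the threshold (log2 fold change 0.27, SE 0.0942, adjusted p = 0.0475) and missed it with limma-voom (adjusted p = 0.0514), on both FPKM scales (adjusted p = 0.157 and 0.155), with a minimum of 10 counts (adjusted p = 0.0563), without siNeg PE libraries 1 and 2 (adjusted p = 0.119 and 0.175) and without siSlc25a26 PE libraries 1 and 2 (adjusted p = 0.153 and 0.122). Mlycd stood at 119.9, 104 and 115 CPM in siNeg and 103, 102 and 103 in siNeg PE. The values were 126, 128 and 131 in siSlc25a26 and 103, 96.4 and 83.5 in the libraries labelled siSlc25a26 PE. It fell with PE in the siSlc25a26 background (log2 fold change -0.43, SE 0.0727, adjusted p = 0.00102). Its small rise in siSlc25a26 without PE (log2 fold change 0.16, SE 0.057, adjusted p = 0.0481) was not stable, with adjusted p = 0.0533 to 0.0802 across DESeq2, DESeq2 size factors, no filter, the replicate block and a fit of all 12 libraries. It also missed the threshold without siNeg library 2 (log2 fold change 0.096, adjusted p = 0.259), without siNeg library 3 (adjusted p = 0.110) or without siSlc25a26 library 1, 2 or 3 (adjusted p = 0.0888, 0.105 and 0.130).

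The acyl-CoA dehydrogenases open each turn of beta-oxidation, each for its own chain length. All 6 were lower in the libraries labelled siSlc25a26 PE than in siNeg PE, with log2 fold changes of -0.65 to -0.30. Acadm, the medium-chain enzyme, went up with PE and stood at 109, 112 and 118 CPM in siNeg and 174, 177 and 181 in siNeg PE. The values were 101, 106 and 96.03 in siSlc25a26 and 135, 138 and 142 in the libraries labelled siSlc25a26 PE. The PE groups were above their controls without overlap, by 1.56-fold in siNeg (log2 fold change 0.64, SE 0.0529, adjusted p = 6.35e-05) and 1.38-fold in the siSlc25a26 background (log2 fold change 0.46, SE 0.0551, adjusted p = 0.000139). Both siSlc25a26 groups were below their siNeg counterparts (log2 fold change -0.18, SE 0.0543, adjusted p = 0.025 without PE, and log2 fold change -0.36, SE 0.0555, adjusted p = 0.00101 under PE). The value without PE missed the threshold on both FPKM scales (adjusted p = 0.111 and 0.114), without siNeg library 2 (adjusted p = 0.0515) and without siSlc25a26 libraries 1 and 3 (adjusted p = 0.0737 and 0.0865).

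Acads, the short-chain enzyme, stood at 182, 171 and 172 CPM in siNeg and 137, 136 and 141 in siNeg PE. The values were 122, 120.5 and 122 in siSlc25a26 and 97.8, 91.9 and 75.8 in the libraries labelled siSlc25a26 PE. Its 4 groups fell into the same non-overlapping order as those of Slc27a1, with a 1.47-fold fall in siSlc25a26 without PE (log2 fold change -0.55, SE 0.0469, adjusted p = 2.64e-05) and a 1.57-fold lower level under PE (log2 fold change -0.65, SE 0.087, adjusted p = 0.000491). Acadl and Acadvl, the long-chain and very-long-chain enzymes, ranged from 219.6 to 326 and from 106 to 194 CPM. Acadl did not pass with PE in siNeg (log2 fold change 0.01, SE 0.0539, adjusted p = 0.936) and fell in siSlc25a26 without PE (log2 fold change -0.28, SE 0.0831, adjusted p = 0.0221), which missed the threshold on both FPKM scales (adjusted p = 0.0724 and 0.0720) and without siSlc25a26 library 1 (adjusted p = 0.0616). Acadvl fell with PE in siNeg (log2 fold change -0.33, SE 0.0903, adjusted p = 0.017), though not without siNeg PE library 2 (adjusted p = 0.0656), and was lower under PE in the libraries labelled siSlc25a26 PE (log2 fold change -0.30, SE 0.0675, adjusted p = 0.00708), though not without library 2 of that label (adjusted p = 0.0547).

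Acad10, a family member thought to act on hydroxylated fatty acids, stood at 24.3, 21.5 and 22.7 CPM in siNeg and 13.5, 13.1 and 13.6 in siNeg PE. The values were 21.7, 23.1 and 24.7 in siSlc25a26 and 11.5, 9.18 and 8.35 in the libraries labelled siSlc25a26 PE. The PE groups were below their controls, 1.72-fold in siNeg (log2 fold change -0.78, SE 0.0827, adjusted p = 0.000219) and 2.38-fold in the siSlc25a26 background (log2 fold change -1.25, SE 0.117, adjusted p = 3.14e-05). The lower level under PE (log2 fold change -0.48, SE 0.122, adjusted p = 0.0125) missed the threshold without siSlc25a26 PE library 2 (adjusted p = 0.0663). Acad11, its close relative, ranged from 9.20 to 18.3 CPM and was lower in both siSlc25a26 groups (log2 fold change -0.31, SE 0.0849, adjusted p = 0.0153 without PE, and log2 fold change -0.59, SE 0.117, adjusted p = 0.0041 under PE), the former not without siSlc25a26 library 1 (adjusted p = 0.0601).

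The hydratase, hydroxyacyl dehydrogenase and thiolase steps complete the cycle, and all 5 members were lower in the libraries labelled siSlc25a26 PE than in siNeg PE. Their summed CPM was 74.8% to 80.0% of the siNeg mean in siNeg PE and 51.7% to 59.9% in the libraries labelled siSlc25a26 PE. Hadh, the short-chain hydroxyacyl-CoA dehydrogenase, stood at 251, 249.8 and 273 CPM in siNeg and 147, 148 and 188 in siNeg PE. The values were 253, 273 and 273 in siSlc25a26 and 114, 94.8 and 78.2 in the libraries labelled siSlc25a26 PE. siNeg and siSlc25a26 overlapped (log2 fold change 0.02, SE 0.0548, adjusted p = 0.777), and both PE groups were below them. It fell 1.61-fold with PE in siNeg (log2 fold change -0.69, SE 0.103, adjusted p = 0.0011) and 2.77-fold in the siSlc25a26 background (log2 fold change -1.47, SE 0.115, adjusted p = 1.09e-05), and the effects differed (log2 fold change -0.80, SE 0.17, adjusted p = 0.0105). Acaa2, the mitochondrial thiolase, stood at 227, 173 and 202 CPM in siNeg and 131, 126 and 138 in siNeg PE. The values were 180.1, 184 and 155 in siSlc25a26 and 87.4, 71.4 and 65.4 in the libraries labelled siSlc25a26 PE. The libraries labelled siSlc25a26 PE were again the lowest, 1.77-fold below siNeg PE (log2 fold change -0.83, SE 0.0985, adjusted p = 0.000263). PE lowered Acaa2 1.54-fold in siNeg (log2 fold change -0.62, SE 0.0972, adjusted p = 0.00134) and 2.302-fold in the siSlc25a26 background (log2 fold change -1.20, SE 0.106, adjusted p = 2.26e-05).

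Hadha and Hadhb, the subunits of the mitochondrial trifunctional protein, moved alike. Hadha ranged from 412 to 762 CPM, with log2 fold changes of -0.42 with PE in siNeg, -0.45 with PE in the siSlc25a26 background, -0.30 in siSlc25a26 without PE and -0.33 under PE, all with adjusted p of 0.00459 or less. Hadhb ranged from 414 to 747 CPM, with log2 fold changes of -0.29, -0.48, -0.25 and -0.45 in the same order, all with adjusted p of 0.0111 or less. Echs1, the short-chain enoyl-CoA hydratase, ranged from 70.7 to 135 CPM. It overlapped between PE groups and their controls, and was lower in siSlc25a26 without PE (log2 fold change -0.45, SE 0.0951, adjusted p = 0.00487) and under PE (log2 fold change -0.60, SE 0.0809, adjusted p = 0.000501).

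Of the 3 enzymes that prepare unsaturated fatty acids for the cycle, 2 fell with PE in siNeg and 3 with PE in the siSlc25a26 background. Their summed CPM was 69.6% to 73.2% of the siNeg mean in siNeg PE and 48.7% to 55.7% in the libraries labelled siSlc25a26 PE. Decr1, a dienoyl-CoA reductase, stood at 176, 146 and 177 CPM in siNeg and 105, 107 and 106 in siNeg PE. The values were 147, 159 and 136 in siSlc25a26 and 76.2, 67.8 and 66.3 in the libraries labelled siSlc25a26 PE. Each PE group was below its control without overlap. The fall was 1.58-fold in siNeg (log2 fold change -0.66, SE 0.0774, adjusted p = 0.000343) and 2.09-fold in the siSlc25a26 background (log2 fold change -1.06, SE 0.0738, adjusted p = 5.34e-06). Eci1, an enoyl-CoA isomerase, ranged from 55.5 to 136 CPM and fell 1.48-fold with PE in siNeg (log2 fold change -0.57, SE 0.0766, adjusted p = 0.000692) and 1.87-fold in the siSlc25a26 background (log2 fold change -0.91, SE 0.0732, adjusted p = 1.31e-05). Eci2, its relative shared with peroxisomes, ranged only from 53.5 to 67.2 CPM, and PE in siNeg gave log2 fold change -0.02, SE 0.0565, adjusted p = 0.779. It was lower in the libraries labelled siSlc25a26 PE than in siSlc25a26 (log2 fold change -0.22, SE 0.0642, adjusted p = 0.0192) and than in siNeg PE (log2 fold change -0.24, SE 0.0611, adjusted p = 0.0119). Both values missed the threshold without siSlc25a26 PE library 2 (adjusted p = 0.0753 and 0.0773), and the former also without siSlc25a26 libraries 1 and 2 (adjusted p = 0.0707 and 0.0719).

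Electron transfer flavoprotein, made of Etfa and Etfb, and its ubiquinone oxidoreductase Etfdh pass the electrons of the dehydrogenases to the respiratory chain. Their summed CPM was 107% to 111% of the siNeg mean in siNeg PE, 79.3% to 90.9% in siSlc25a26 and 82.0% to 87.5% in the libraries labelled siSlc25a26 PE. Etfa rose with PE in siNeg (log2 fold change 0.20, SE 0.0538, adjusted p = 0.015), and all 3 genes were lower in the libraries labelled siSlc25a26 PE than in siNeg PE, with log2 fold changes of -0.28 for Etfa, -0.36 for Etfb and -0.48 for Etfdh (adjusted p = 0.0033, 0.0105 and 0.000262). Without PE, Etfb (log2 fold change -0.35, SE 0.0713, adjusted p = 0.0042) and Etfdh (log2 fold change -0.31, SE 0.0636, adjusted p = 0.00447) were lower in siSlc25a26.

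Of the 3 ketone body genes, 2 rose and 1 fell with PE in both backgrounds. The summed CPM of Bdh1, Oxct1 and Acat1 was 161% to 164% of the siNeg mean in siNeg PE and 133% to 143% in the libraries labelled siSlc25a26 PE, against 83.0% to 86.1% in siSlc25a26. Bdh1, which oxidises hydroxybutyrate, stood at 24.1, 25.98 and 22.6 CPM in siNeg and 80.7, 76.4 and 76.3 in siNeg PE. The values were 19.3, 21.8 and 23.8 in siSlc25a26 and 70.7, 63.9 and 54.9 in the libraries labelled siSlc25a26 PE. Every PE library was well above every library without PE. Bdh1 rose 3.19-fold with PE in siNeg (log2 fold change 1.67, SE 0.0701, adjusted p = 3.89e-06) and 2.94-fold in the siSlc25a26 background (log2 fold change 1.55, SE 0.107, adjusted p = 4.91e-06). Under PE it was lower in the libraries labelled siSlc25a26 PE (log2 fold change -0.31, SE 0.0902, adjusted p = 0.0227). That value missed the threshold without siNeg PE library 1 or 2 (adjusted p = 0.0771 and 0.0561) and without siSlc25a26 PE library 2 or 3 (adjusted p = 0.0834 and 0.0566).

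Oxct1, the coenzyme A transferase that commits acetoacetate to oxidation, stood at 185, 266 and 211 CPM in siNeg and 472, 497 and 497 in siNeg PE. The values were 157, 148 and 145 in siSlc25a26 and 367, 403 and 435 in the libraries labelled siSlc25a26 PE. Again all PE libraries were above all others, and within each treatment the siSlc25a26 groups were below the siNeg groups. Oxct1 rose 2.198-fold with PE in siNeg (log2 fold change 1.14, SE 0.118, adjusted p = 0.000199) and 2.696-fold in the siSlc25a26 background (log2 fold change 1.43, SE 0.0709, adjusted p = 7.58e-07), and it fell 1.497-fold in siSlc25a26 without PE (log2 fold change -0.58, SE 0.117, adjusted p = 0.00376). The lower level under PE (log2 fold change -0.29, SE 0.0743, adjusted p = 0.0131) missed the threshold without siNeg PE library 2 (adjusted p = 0.0525) or siSlc25a26 PE library 2 (adjusted p = 0.0503). Acat1, the thiolase that splits acetoacetyl-CoA, ranged from 169 to 228 CPM and fell slightly with PE in siNeg (log2 fold change -0.24, SE 0.0507, adjusted p = 0.00512) and in the siSlc25a26 background (log2 fold change -0.32, SE 0.0489, adjusted p = 0.000563). The PE effects on the 3 genes did not differ at the threshold between the backgrounds, with differences of -0.14 for Bdh1 (SE 0.138), 0.27 for Oxct1 (SE 0.154) and -0.10 for Acat1 (SE 0.068) on the log2 scale.

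**Figure D3:**
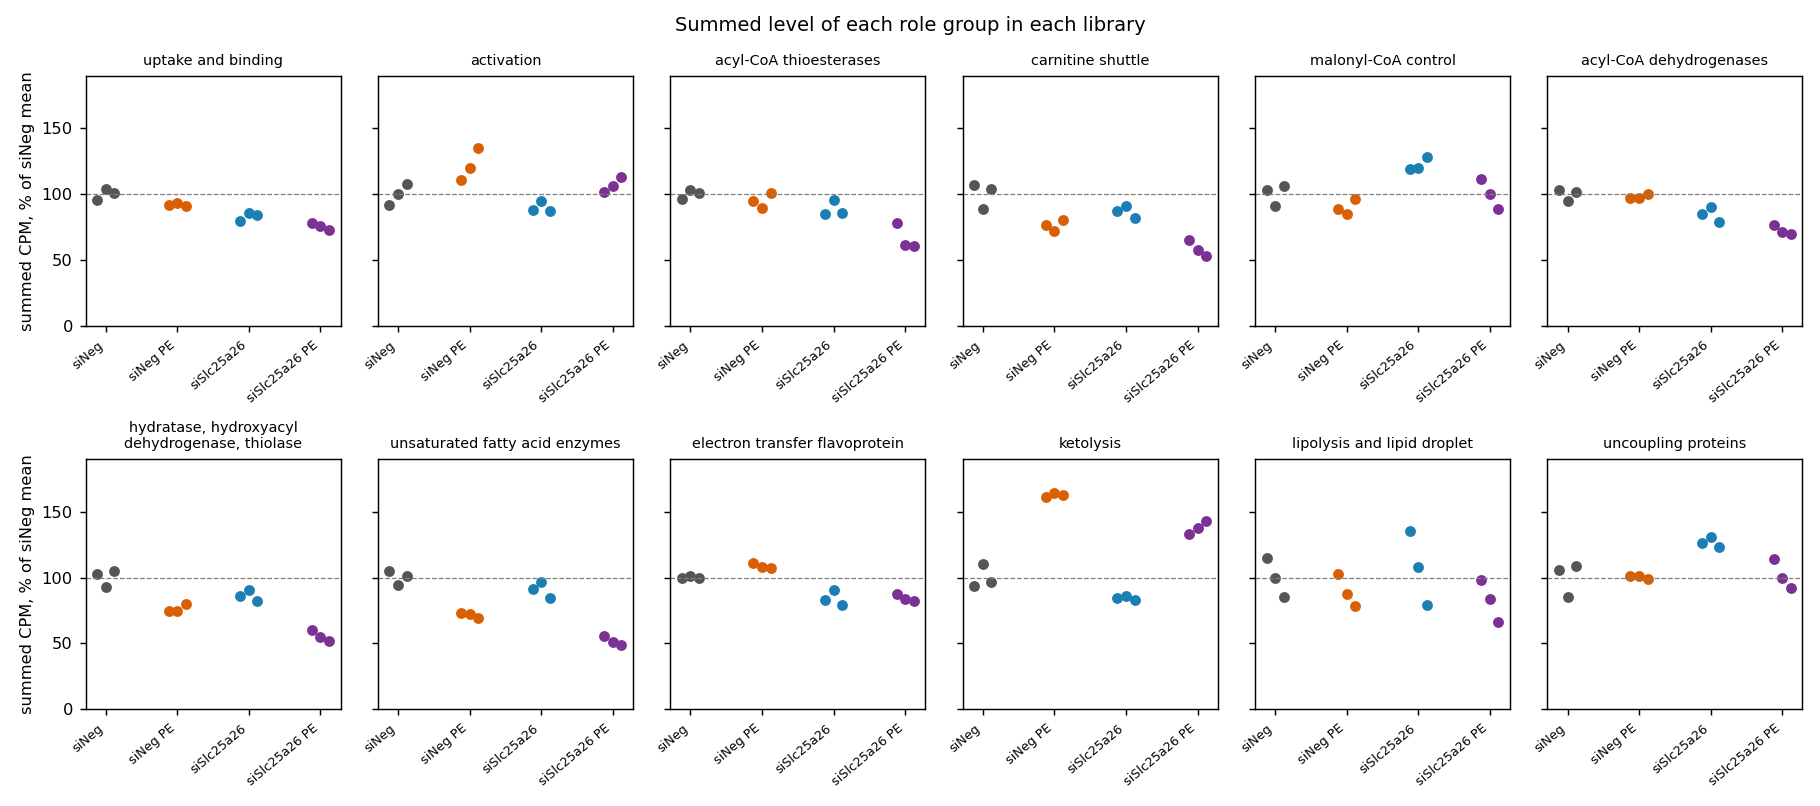
Summed CPM of each role group in each library (points), as a percentage of the siNeg mean, with the dashed line at 100%. Ketolysis lies at 161% to 164% in siNeg PE, while the carnitine shuttle (52.8% to 65.3%), the hydratase, hydroxyacyl dehydrogenase and thiolase group (51.7% to 59.9%) and the unsaturated fatty acid enzymes (48.7% to 55.7%) are lowest in the libraries labelled siSlc25a26 PE.

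On the lipid droplet, Plin5, the coat protein that ties droplets to mitochondria, had the largest fall of any member with PE in siNeg. It stood at 6.67, 5.07 and 5.39 CPM in siNeg and 2.39, 2.22 and 3.03 in siNeg PE. The values were 3.85, 4.202 and 2.61 in siSlc25a26 and 0.975, 0.954 and 0.8503 in the libraries labelled siSlc25a26 PE. siNeg PE and siSlc25a26 libraries were each below all siNeg libraries, and those labelled siSlc25a26 PE were the lowest. It fell 2.26-fold with PE in siNeg (log2 fold change -1.18, SE 0.179, adjusted p = 0.00119), 1.64-fold in siSlc25a26 without PE (log2 fold change -0.71, SE 0.192, adjusted p = 0.0154) and 3.798-fold with PE in the siSlc25a26 background (log2 fold change -1.93, SE 0.231, adjusted p = 0.000146), and was 2.76-fold lower in the comparison under PE (log2 fold change -1.46, SE 0.214, adjusted p = 0.000804). Lipe, hormone-sensitive lipase, was low at 2.86 to 6.10 CPM and fell with PE in siNeg (log2 fold change -0.63, SE 0.139, adjusted p = 0.00672) and in the siSlc25a26 background (log2 fold change -0.78, SE 0.139, adjusted p = 0.00146). Pnpla2, the adipose triglyceride lipase, ranged from 59.5 to 119 CPM, overlapped between all groups and passed no comparison. Within every group its values fell from library 1 to library 3, for example from 97.5 to 70.1 CPM in siNeg and from 119 to 67.6 in siSlc25a26. That spread enters these comparisons as error.

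Ucp2, a mitochondrial carrier of the uncoupling family, stood at 581, 468 and 597 CPM in siNeg and 554, 555 and 541 in siNeg PE. The values were 694, 720.1 and 676 in siSlc25a26 and 626, 545 and 506 in the libraries labelled siSlc25a26 PE. The siSlc25a26 libraries were above all siNeg libraries, a 1.25-fold rise (log2 fold change 0.32, SE 0.0833, adjusted p = 0.0132) that was 0.21 on the log2 scale without siNeg library 2 and missed the threshold without siSlc25a26 library 2 (adjusted p = 0.0504). It fell with PE in the siSlc25a26 background (log2 fold change -0.31, SE 0.0733, adjusted p = 0.007). Ucp3, the muscle form, stood at 0.326, 0.229 and 0.148 CPM in siNeg and at 0 in all 3 siNeg PE libraries, too low to test.

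**Figure D4:**
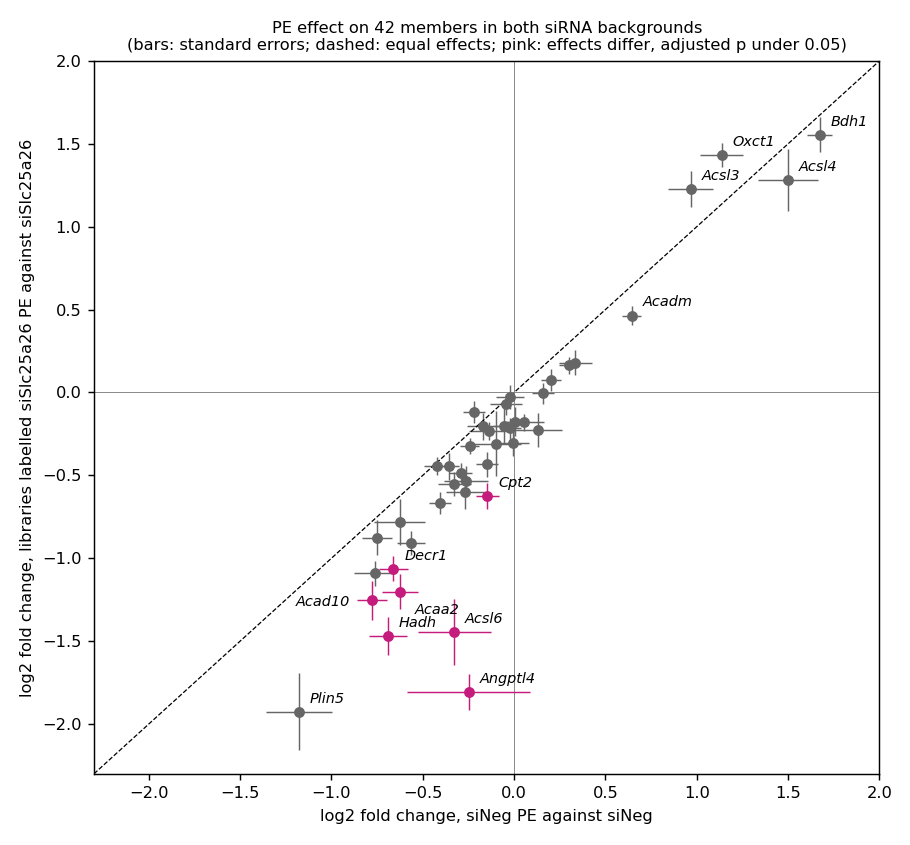
Log2 fold change with PE in siNeg (horizontal axis) against that in the siSlc25a26 background (vertical axis) for the 42 members tested in both, with standard errors as bars and equal effects on the dashed line. The 7 members in pink differ at an adjusted p under 0.05 and all lie below the line, from Decr1 at -0.42 to Angptl4 at -1.58 in the difference.

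The members whose PE effect differed between the backgrounds came from several steps of the pathway: an Lpl inhibitor, an acyl-CoA synthetase, a shuttle enzyme and 4 oxidation enzymes. Hadh (log2 fold change -0.80, SE 0.17, adjusted p = 0.0105), Cpt2 (log2 fold change -0.50, SE 0.107, adjusted p = 0.0105) and Angptl4 (log2 fold change -1.58, SE 0.317, adjusted p = 0.00744) held with any 1 library left out. Acaa2 (log2 fold change -0.60, SE 0.159, adjusted p = 0.0304) missed the threshold without siNeg library 2, siNeg PE library 3, siSlc25a26 PE libraries 2 and 3 or siSlc25a26 libraries 1 and 2, with adjusted p = 0.0613 to 0.0799. Decr1 (log2 fold change -0.42, SE 0.114, adjusted p = 0.0326) missed it without siNeg library 2, siNeg PE libraries 2 and 3, siSlc25a26 PE libraries 2 and 3 or siSlc25a26 libraries 1 and 2, with adjusted p = 0.0588 to 0.0858. Acad10 (log2 fold change -0.50, SE 0.147, adjusted p = 0.0471) missed it without any library but siSlc25a26 PE library 1, with adjusted p = 0.0566 to 0.115. It also missed it with DESeq2 size factors (adjusted p = 0.0572) and with no filter (adjusted p = 0.0565). Acsl6 (log2 fold change -1.14, SE 0.286, adjusted p = 0.0247) missed it without siNeg PE libraries 2 and 3, siSlc25a26 PE library 3 or siSlc25a26 library 1, with adjusted p = 0.0539 to 0.0609, and on both FPKM scales (adjusted p = 0.224 and 0.0799). In siSlc25a26 without PE, Hadh, Cpt2, Acad10, Acaa2, Decr1 and Acsl6 had log2 fold changes of 0.02, 0.07, -0.00, -0.24, -0.20 and -0.21 against siNeg, none past the threshold, whereas all 6 were lower under PE.

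The other genes of the pathway, 59 matched of 60 listed, also had more falls than rises. They were listed for uptake and transport, mitochondrial and peroxisomal oxidation, triglyceride storage, ketone body synthesis and the choice of fuel. With PE in siNeg 10 of 58 rose (17.2%, against 25.2% of all genes) and 23 fell (39.7%, against 24.3%). In siSlc25a26 without PE 8 of 58 rose (13.8%, against 23.3%) and 23 fell (39.7%, against 21.7%). In the libraries labelled siSlc25a26 PE, against siNeg PE, 7 of 57 were higher (12.3%, against 20.1%) and 21 lower (36.8%, against 20.1%), where 69.8% of the members were lower. With PE in the siSlc25a26 background 13 of 58 rose (22.4%, against 26.4%) and 25 fell (43.1%, against 26%), where 59.5% of the members fell. For the difference between the PE effects 5 of 58 were positive (8.62%, against 5.48%) and 9 negative (15.5%, against 5.73%). The negative share was thus close to the 16.3% of the members, of which 0 were positive. Plin4, a lipid droplet coat protein, stood at 37.9, 31.8 and 23.3 CPM in siNeg and 7.76, 7.43 and 5.59 in siNeg PE. The values were 46.3, 41.9 and 27.5 in siSlc25a26 and 13.8, 15.9 and 15 in the libraries labelled siSlc25a26 PE. It fell with PE in siNeg (log2 fold change -2.18, SE 0.195, adjusted p = 1e-04) and was higher under PE in the libraries labelled siSlc25a26 PE (log2 fold change 1.09, SE 0.138, adjusted p = 0.000359). Fabp4, the fatty acid binding protein of adipocytes, macrophages and capillary endothelium, stood at 3.15, 2.79 and 1.92 CPM in siNeg and 0.677, 0.778 and 0.559 in siNeg PE. The values were 0.341, 0.496 and 0.487 in siSlc25a26 and 0.312, 0.477 and 0.232 in the libraries labelled siSlc25a26 PE. It fell with PE in siNeg (log2 fold change -1.97, SE 0.263, adjusted p = 0.000647) and in siSlc25a26 without PE (log2 fold change -2.58, SE 0.278, adjusted p = 0.000117). In the siSlc25a26 background, where Fabp4 was at 0.232 to 0.496 CPM, its PE change did not pass (log2 fold change -0.36). The PE effects on Fabp4 differed (log2 fold change 1.58, SE 0.46, adjusted p = 0.0438), a value limited by these low levels. The immune markers were lower in the same groups, and their part in this value was not tested.

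Slc25a20, the carnitine-acylcarnitine translocase of the inner mitochondrial membrane, fell with PE in siNeg (log2 fold change -0.42, SE 0.0727, adjusted p = 0.00223) and in siSlc25a26 without PE (log2 fold change -0.30, SE 0.0669, adjusted p = 0.00635). It was lower under PE too (log2 fold change -0.42, SE 0.0886, adjusted p = 0.00567). Pdk4, the kinase that turns off pyruvate oxidation, stood at 18.7, 15.8 and 23.3 CPM in siNeg and 16.6, 18.7 and 22.96 in siNeg PE. The values were 24.6, 29.3 and 23.01 in siSlc25a26 and 16.7, 13.99 and 13.9 in the libraries labelled siSlc25a26 PE. Its PE effect was near 0 in siNeg (log2 fold change -0.00, SE 0.166, adjusted p = 0.998) and was a 1.71-fold fall in the siSlc25a26 background (log2 fold change -0.78, SE 0.111, adjusted p = 0.000413), and these differed (log2 fold change -0.79, SE 0.215, adjusted p = 0.0331). Ech1, a dienoyl-CoA isomerase, fell 2.43-fold with PE in siNeg (log2 fold change -1.28, SE 0.141, adjusted p = 0.000257) and 3.94-fold in the siSlc25a26 background (log2 fold change -1.98, SE 0.131, adjusted p = 3.98e-06), and the difference was close to the threshold (log2 fold change -0.72, SE 0.213, adjusted p = 0.0481). Acss1, the mitochondrial acetyl-CoA synthetase, fell 4.25-fold with PE in the siSlc25a26 background (log2 fold change -2.09, SE 0.199, adjusted p = 3.53e-05). Bdh2, a cytosolic dehydrogenase of the same family as Bdh1, fell in siSlc25a26 without PE (log2 fold change -0.81, SE 0.11, adjusted p = 0.000477), and G0s2, an inhibitor of Pnpla2, rose there (log2 fold change 0.67, SE 0.0732, adjusted p = 0.000129). Slc16a7, a monocarboxylate transporter, and Mcee, an enzyme of propionate use, were lower under PE in the libraries labelled siSlc25a26 PE (log2 fold change -1.02, SE 0.167, adjusted p = 0.00145 for Slc16a7, and log2 fold change -0.87, SE 0.113, adjusted p = 0.000425 for Mcee).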

How the data were processed

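The authors deposited, for 12 rat libraries made by the protocol of Beijing Genomics Institution, expected counts per gene (estimated counts, about 21% of them not whole) and FPKM values. The submitters' processing notes name HISAT, Bowtie2 and the Rnor_6.0 build, and the counting tool is not given in the sources used here. The authors made FPKM by dividing by transcript length and library total. Counts were rounded. Plain counts had been planned for, and the same test was used. Each comparison was fitted on its own libraries in R 4.3.3 with edgeR 4.0.16 (filterByExpr, TMM, quasi-likelihood test), and the difference between PE effects on all 12. P-values were adjusted by Benjamini-Hochberg over all genes tested. A gene rose or fell at an adjusted p under 0.05, and the study's 1.5-fold threshold was added where stated. Library totals of 24770972 to 28709049 set the counting error. DESeq2 1.42.0 and limma 3.58.1 were alternatives. Columns of no sample numbered 0.

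Members were picked by gene symbol and known role, by a rule that reads no measured value, but they, the gene lists and the tests were chosen with earlier results of these data known. Values in every library were given for up to 6 members with the largest rise and up to 6 with the largest fall per comparison at an adjusted p under 0.05, and always for Cpt1b, Acadm, Cd36, Angptl4 and Oxct1. Other pathway genes were named by up to 3 per comparison with the largest change, plus Slc25a20 and Pdk4. The scripts were tested on simulated data. The values of a gene from the wider pathway list are not reported here.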

Additional observations from a re-analysis of the deposited data

Results flagged for a closer look

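For 7 members the change with PE in the siSlc25a26 background differed from that in siNeg in a test of the difference itself over all 12 libraries (edgeR interaction term, adjusted p under 0.05). The difference on the log2 scale was -1.58 for Angptl4, -1.14 for Acsl6, -0.80 for Hadh, -0.60 for Acaa2, -0.50 for Cpt2, -0.50 for Acad10 and -0.42 for Decr1. For Angptl4 the values before PE were 1.63, 0.648 and 1.25 CPM in siNeg and 12.8, 14.2 and 12.1 CPM in siSlc25a26, so its larger fall started from a higher level. The other 6 started from levels in siSlc25a26 that did not pass the test against siNeg. All 7 rest on the libraries labelled siSlc25a26 PE, in which Slc25a26 RNA did not differ at the threshold from siNeg PE (log2 fold change -0.01, SE 0.101, adjusted p = 0.969).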

How the results depend on the processing

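Counts of members past both thresholds kept within 1.5 times of the reported value under DESeq2, DESeq2 size factors, limma-voom, other filters and a fit of all 12 libraries. With no fold threshold, 8 rose and 16 fell with PE in siNeg, 6 rose and 17 fell in siSlc25a26 without PE, 4 were higher and 30 lower under PE, 25 fell with PE in the siSlc25a26 background, and 7 differed negatively between PE effects. For siSlc25a26 without PE the count of falls was 0 on log2(FPKM + 1), where 13 members fell at the adjusted p alone, and 1 on log2(FPKM + 0.1). Those scales moved the median of all genes to -0.125 and -0.171 for PE in the siSlc25a26 background, with 564 higher and 1497 lower genes on the former and 824 and 2214 on the latter, against 1389 and 1436. For the difference between PE effects they moved it to -0.109 and -0.143, with 164 positive and 538 negative genes on the former and 218 and 768 on the latter, against 305 and 471. Acsl5 with PE in the siSlc25a26 background turned from 0.16 to -0.0024 on both, which still lies above those shifted medians, and no other called member value reversed under the alternatives run. FPKM gave 16 members with a difference below 0 at the adjusted threshold, against 7. The FPKM fits used the deposited values without TMM scaling. TMM factors were 0.923 to 0.947 in the libraries labelled siSlc25a26 PE and 1.039 to 1.053 in siSlc25a26. With 1 library left out, falls ranged from 7 to 9 with PE in siNeg, from 12 to 15 with PE in the siSlc25a26 background, from 1 (without siSlc25a26 library 3) to 4 (without siNeg library 3) in siSlc25a26 without PE, and from 7 (without siSlc25a26 PE library 3) to 14 under PE. Members higher ranged from 1 to 2 (without siSlc25a26 PE library 1) under PE and from 2 to 3 without PE, and negative differences from 2 (without siNeg PE library 3, siSlc25a26 PE library 3 or siSlc25a26 library 1) to 5. Over all genes these counts also moved. Falls ran from 951 to 1138 with PE in siNeg and from 1346 to 1529 with PE in the siSlc25a26 background. They ran from 881 to 1139 in siSlc25a26 without PE and from 973 to 1099 under PE. Rises ran from 929 to 1075 under PE and from 1034 to 1475 without PE. Negative differences ran from 301 (without siNeg PE library 3) to 646 (without siNeg library 3). They were 444 without siSlc25a26 PE library 3 and 359 without siSlc25a26 library 1. The causes were not tested.

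Replicate numbers are shared between groups, but the labels tie no number to a shared isolation or day, and same-numbered libraries correlated at -0.0913 to 0.217, not all above 0.1, so they were not treated as pairs. The library's own number gave the highest correlation in 20 of 36 checks, a hint from the data and not the design. It did so in 6 of 6 between siNeg and siSlc25a26 PE and in 5 of 6 between siNeg and siNeg PE. Between siNeg PE and siSlc25a26 PE it did so in 4 of 6. Against siSlc25a26 the number was 2 of 6 for siNeg, 3 of 6 for siNeg PE and 0 of 6 for siSlc25a26 PE. With the replicate block, members past both thresholds numbered 5 higher and 8 lower with PE in siNeg, 3 and 2 in siSlc25a26 without PE, 1 and 10 under PE, 4 and 14 with PE in the siSlc25a26 background, and 0 and 4 for the difference. At the adjusted p alone the block gave 22 members lower with PE in siNeg, against 16, and 31 under PE, against 30. It gave 9 negative differences, against 7. Over all genes, past both thresholds, 1166 were lower with PE in siNeg, against 1130, and 1128 under PE, against 1108. Negative differences over all genes numbered 619, against 471. All genes were not counted at the adjusted p alone under the block, so these gains cannot set the members apart. With the block Acsl5 with PE in the siSlc25a26 background (adjusted p = 0.061) and Mlycd in siSlc25a26 without PE (adjusted p = 0.0559) missed the threshold. Depth limits the members with the fewest reads, Acot1 and Ucp3, and widens the errors of Angptl4, Plin5 and Acsl6.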

Other observations

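The neighbouring peroxisomal oxidation genes, 14 of which were listed, were lower as a sum in both PE groups than in siNeg, while siSlc25a26 overlapped siNeg. With PE in siNeg their median log2 fold change was -0.12 and the lowest, that of Ech1, was -1.28. In the siSlc25a26 background these values were -0.16 and -1.98. Their summed level was 1108 to 1198 CPM in siNeg, 908 to 978 in siNeg PE, 1059 to 1144 in siSlc25a26 and 691 to 783 in the libraries labelled siSlc25a26 PE. With PE in siNeg 1 rose and 6 fell (edgeR, adjusted p under 0.05, against 25.2% and 24.3% of all genes), and with PE in the siSlc25a26 background 1 rose and 6 fell (against 26.4% and 26%). In siSlc25a26 without PE 2 rose and 5 fell (against 23.3% and 21.7%), and under PE 0 were higher and 5 lower (against 20.1% each).

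Among transporters, 2 genes chosen after their values were seen went up. Slc16a1, a monocarboxylate transporter that carries lactate and ketone bodies, stood at 247, 264 and 265 CPM in siNeg and 514, 505 and 499.7 in siNeg PE. The values were 324, 335 and 339.8 in siSlc25a26 and 684, 665 and 663 in the libraries labelled siSlc25a26 PE. It rose 1.94-fold with PE in siNeg (log2 fold change 0.96, SE 0.0496, adjusted p = 9.24e-06) and 1.26-fold in siSlc25a26 without PE (log2 fold change 0.34, SE 0.0497, adjusted p = 0.000699). Slc27a4, a fatty acid transport protein, stood at 64.6, 59.1 and 59.9 CPM in siNeg and 67.1, 64.7 and 57.5 in siNeg PE. The values were 59.5, 55.4 and 59.5 in siSlc25a26 and 97.7, 92.5 and 91.6 in the libraries labelled siSlc25a26 PE. PE gave log2 fold change 0.03, SE 0.0712, adjusted p = 0.736 in siNeg and a 1.63-fold rise in the siSlc25a26 background (log2 fold change 0.70, SE 0.0551, adjusted p = 1.09e-05), and these effects differed (log2 fold change 0.65, SE 0.0925, adjusted p = 0.00118), opposite in direction to Slc27a1 (log2 fold change -0.28, SE 0.0925, adjusted p = 0.0709), whose difference did not pass.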
